A study of Mus musculus with 3 samples.

Results

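Glycolysis turns glucose into pyruvate, and the genes described here encode its glucose transporters and enzymes, the enzymes and transporters of lactate, the gate into the mitochondrion at pyruvate dehydrogenase, and part of the response to low oxygen. They were 36 genes, picked by symbol from the 36808 rows of each deposited table, with Pkm2 taken as the row of pyruvate kinase M, since the tables write that earlier symbol of Pkm. Messenger RNA had been sequenced from 3 libraries of the mouse embryonic stem (ES) cell line D3, whose strain of origin the labels give as (C3H/HeH x 101/H)F1. The groups were wildtype ES cells at day 0, wildtype control embryoid bodies (EBs) at day 4, and EBs at day 4 of the genotype Brachyury knockdown. EBs are aggregates in which ES cells begin to differentiate, and Brachyury is the T-box factor of the primitive streak encoded by T. Whole EBs were used. The control library is named nontarget in 1 of the tables, and how the knockdown was made, or whether it is 1 clone, is not given in the sources used here.

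As background, glycolysis has a preparatory phase that spends ATP, from hexokinase through phosphofructokinase and aldolase to triose phosphate isomerase, and a payoff phase that earns it back, from glyceraldehyde 3-phosphate dehydrogenase to pyruvate kinase. Pyruvate then enters mitochondria through the pyruvate dehydrogenase complex or is reduced to lactate, which leaves the cell through monocarboxylate transporters. In low oxygen the prolyl hydroxylases that mark HIF-1 alpha for destruction slow down, and the stabilised factor binds hypoxia response elements near many glycolytic genes. In the mouse, naive pluripotent cells are described as using both respiration and glycolysis, and primed epiblast cells as leaning more on glycolysis.

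Each group was 1 library, so differences lack a replicate check and cannot be tested. Values are FPKM, fragments scaled by transcript length and by the fragments of the library, as deposited in 2 tables, ES cells with control EBs and control EBs with knockdown EBs. A gene with at least 1 FPKM in either library of a table was called higher or lower when log2(FPKM + 1) differed by at least 1, a rule of size alone. Folds are ratios of the FPKM themselves, and read depth is unknown. Library sums of FPKM ran from 568352 for ES cells to 786277 for control EBs. Over genes with at least 1 FPKM in both libraries, the median log2 ratio of FPKM was −0.11 for control EBs against ES cells. It was 0.05 for knockdown against control EBs. Marker genes of each cell type were summed to check the labels. T was at 0.297 FPKM in ES cells, 254 in control EBs and 2.47 in knockdown EBs, in the direction of the label. Markers of ES cells and naive pluripotency summed to 2139, 527 and 493 FPKM in the same order, led by Pou5f1, with Nanog next in both EB libraries. All 6 of them that were compared were called lower in control EBs against ES cells. In knockdown against control EBs 3 of the 7 were called higher and 0 lower, with a median log2 difference of 0.69. The 3 were Zfp42, Esrrb and Dppa3, and the 2 differences below 0 were those of Pou5f1 (−0.11) and Nanog (−0.48). The sums therefore do not follow the naive genes of the list. Primitive streak markers summed to 2.83, 537 and 138 FPKM, sums that include T itself. Of these 6 markers 4 were called lower in knockdown against control EBs (T, Mixl1, Fgf8 and Evx1) and 2 stayed within 2-fold. Those 2 were Eomes, with a log2 difference of −0.45, and Gsc, which went the other way with 0.32. Of 7 fibroblast markers 6, 6 and 5 were under 1 FPKM in ES cells, control EBs and knockdown EBs, with sums of 2.91, 4.12 and 16.1 FPKM. Col3a1 and Lum were listed at 0 throughout. Dcn, at 0, 0.253 and 9.12 FPKM, was called higher in knockdown EBs, and Thy1 was at 2.72, 3.30 and 6.45 FPKM. The 3 globin genes among 6 blood and vessel markers were listed at 0 in every library. The sums of those 6 markers were 15.1, 1.05 and 1.76 FPKM, led by Pecam1 at 13.8, 0.612 and 1.35. Neural markers differed in both directions, with Tubb3 at 24.7, 0.487 and 9.75 FPKM, Nes at 3.84, 16.5 and 5.29, and Hesx1 at 0.369, 3.31 and 18.7. Endoderm markers summed to 91.7 FPKM in ES cells and 117 in knockdown EBs, and in control EBs to 58.8 in the first table and 84.7 in the second, which list Sox17 at 0.312 and 26.3 FPKM for that library. The part of the cell types in the differences below was not tested, and in whole bodies fewer cells of a type and less RNA per cell cannot be told apart.

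The control library was quantified in both tables, which shows how far quantification alone moves a gene. Its 2 values were within 1% of each other for 30 of the 35 genes above 0, and their ratio ran from 0.759 for Pfkfb4 to 1.09 for Eno2, both low genes. Control values in the text are those of the table that holds the comparison, and where all libraries stand side by side the control value of the first table is used.

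The genes spanned the range from undetected to very abundant. Of the 36 genes 35 reached 1 FPKM in both tables. The exception was Pfkfb3, whose product sets the level of an allosteric activator of phosphofructokinase, and which was listed at 0 in all 3 libraries. A 0 can be a failed estimate in these tables, so its absence is not established. At least 20 FPKM was reached in every library by 20 genes, while Pfkfb3, Pfkfb4, Pdk2 and Egln3 stayed under 5 FPKM in all of them. The 36 values summed to 4852 FPKM in ES cells, 5770.3 in control EBs and 5011 in knockdown EBs, which is 0.854%, 0.738% and 0.659% of the FPKM of each library. Without Ldha, which encodes the main subunit of lactate dehydrogenase, the sums were 4419, 4125 and 3711 FPKM, in falling order.

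**Figure D1:**
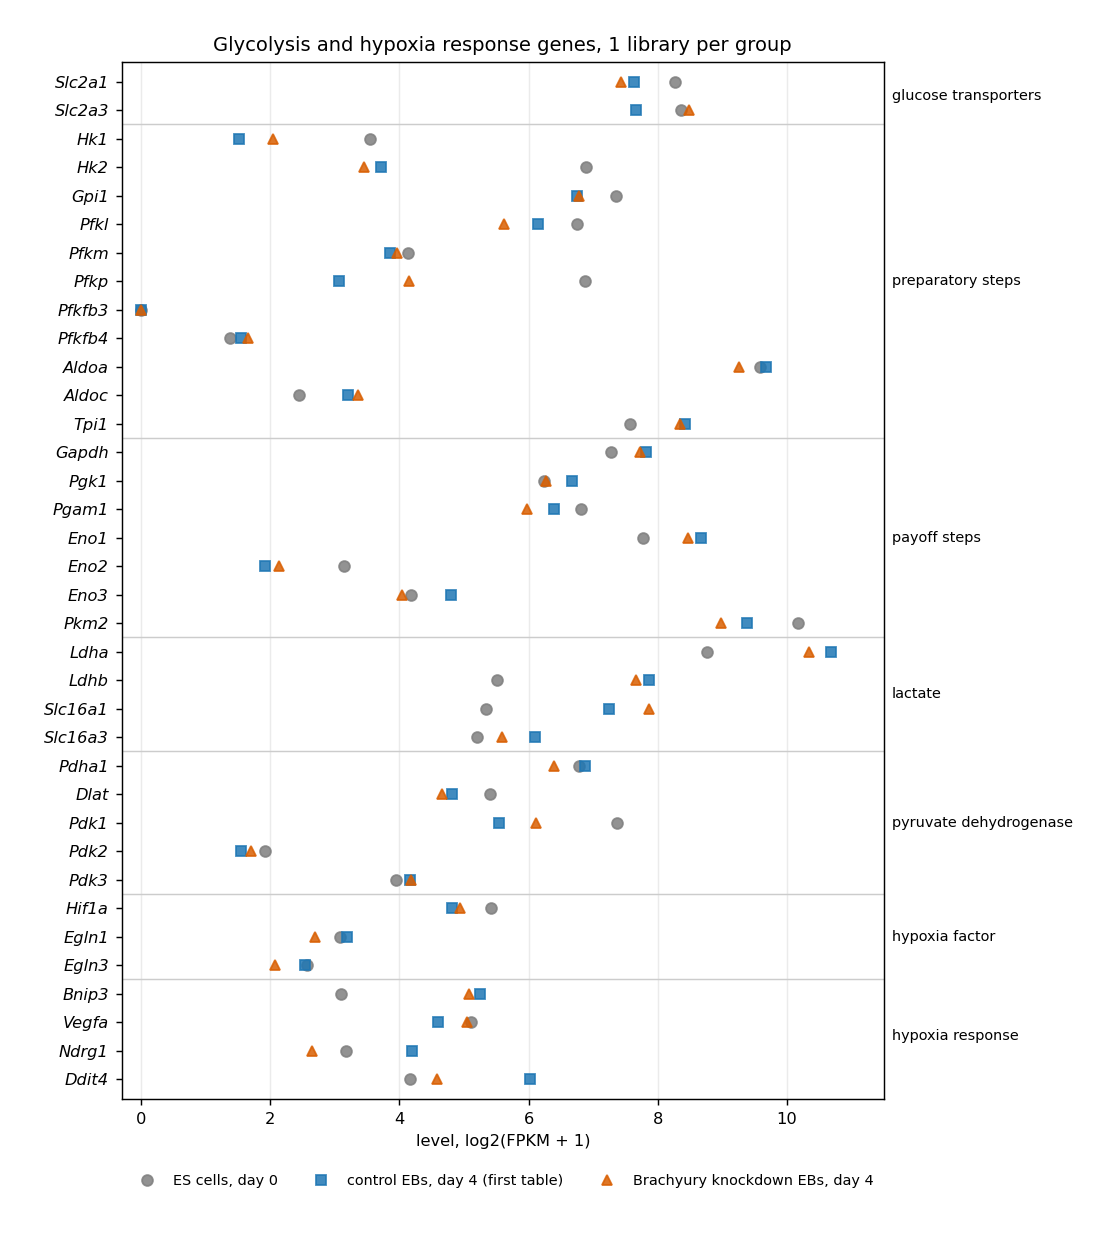
Level of each gene in the 3 libraries on a log2(FPKM + 1) axis, ordered by role, with 1 symbol per library and no error bars because each group is 1 library. Grey circles (ES cells) stand far to the right of both EB symbols for Hk2, Pfkp and Pdk1 and far to the left for Ldha, Ldhb, Slc16a1 and Bnip3, while the triangles (knockdown EBs) lie near the squares (control EBs) for most genes.

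The first question was which of these genes changed level over 4 days of differentiation without a knockdown. Genes of the pathway differed in both directions. Of the 4 genes of lactate production and export 3 were called higher in control EBs, as were 3 of the 4 hypoxia response genes, whereas hexokinase, the platelet form of phosphofructokinase and pyruvate dehydrogenase kinase 1 were called lower, as was Eno2. Called higher were 6 of 35 genes, or 17.1%, against a background of 15.8% of the 13913 genes compared, and called lower were 5 genes, or 14.3%, against 19.5%. Both shares lie near the background. With libraries scaled to the same FPKM sum 5 were called higher and 12 lower, against 9.91% and 30.7% of all genes compared. Their median log2 difference was 0.09, against −0.10 over all genes compared. That median was −0.36 with libraries scaled to the same FPKM sum, −0.02 with near-identical copies summed and −0.03 with the control values of the other table, so its sign depends on the setting. In the authors' deposited table, 19 of 35 genes, or 54.3%, had an unadjusted p under 0.05, against 37.2% of all genes compared, a p that compares 2 libraries and not conditions. At least 20 FPKM in either library was reached by 25 of the 35 genes and by 5669 of the 13913. The part of abundance in the shares by p was not tested.

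**Figure D2:**
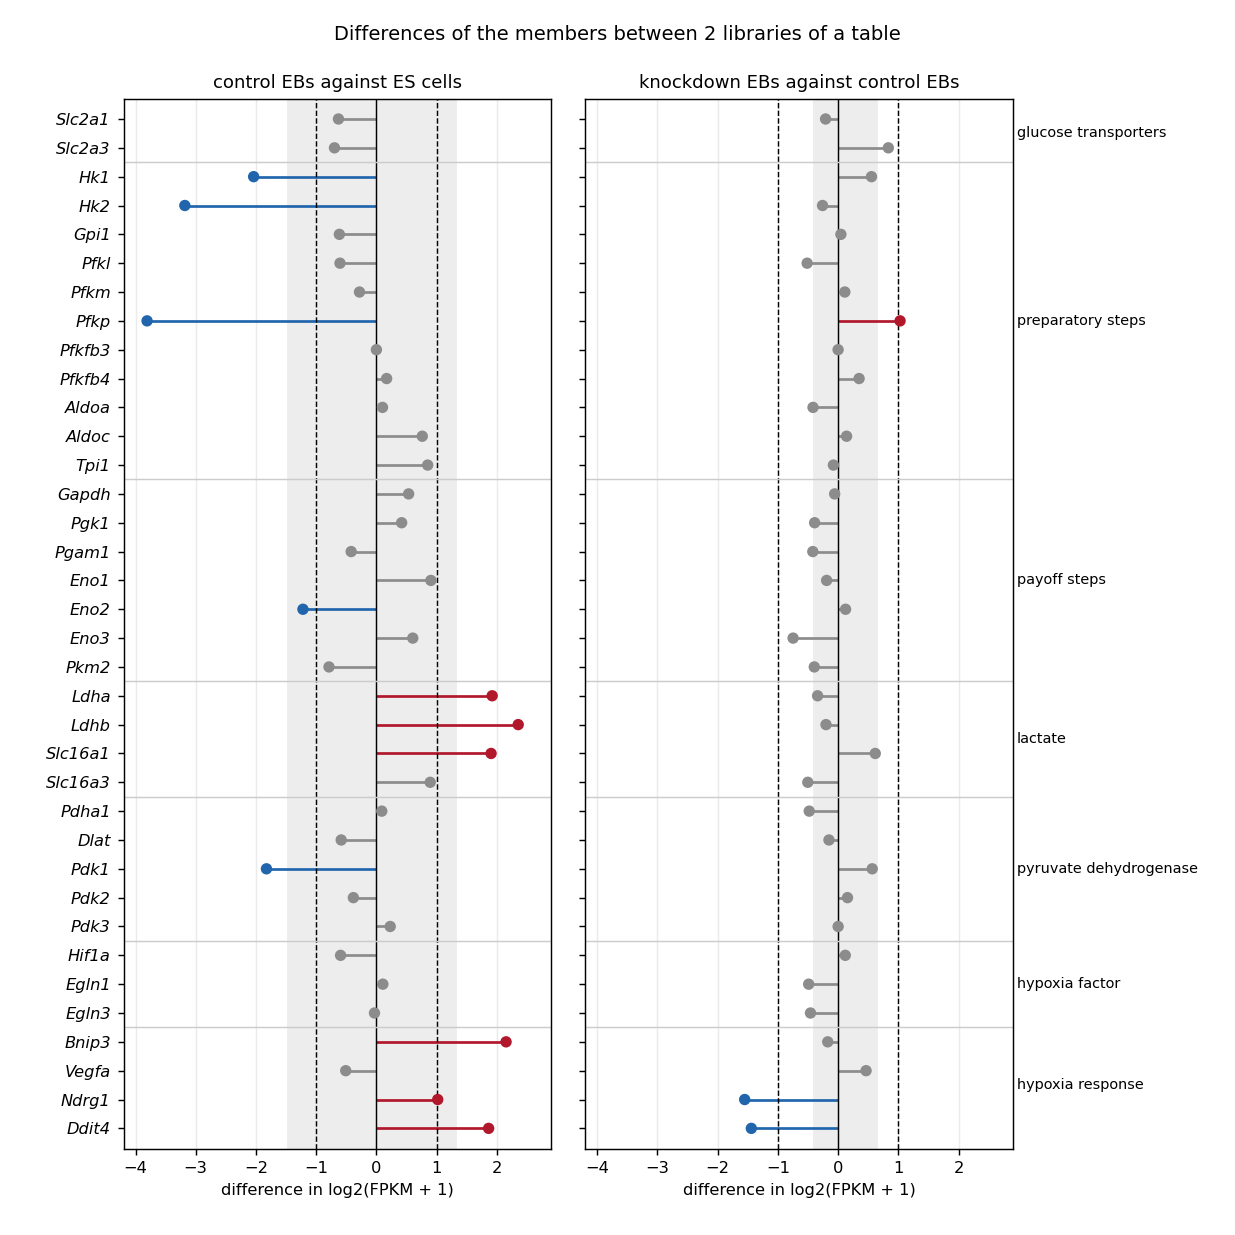
Difference in log2(FPKM + 1) of each gene, control EBs minus ES cells on the left and knockdown EBs minus control EBs on the right. Red points are called higher, blue points are called lower, dashed lines mark a difference of 1 and the shaded band holds the central 80% of all genes compared. On the left 6 red and 5 blue points lie outside the lines, and on the right 1 red and 2 blue points.

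The sequences around the start sites of the genes that differed most are shown because the letters ACGTG and GCGTG, the 2 forms of the hypoxia response element core, can be read in them directly. Windows run from 250 bases before to 50 bases after the start (RefSeq, GRCm38.p6), 5′ to 3′ along the gene, with each match on either strand in capitals, where CACGT and CACGC are the matches read from the other strand and CACGTG holds a match on each. Pfkp, Hk2, Ldhb and Bnip3 were taken by the greatest difference in control EBs against ES cells, among called genes with a promoter match. Ldha was added after its values had been seen.
Pfkp (chr13:6648722-6649021, minus strand): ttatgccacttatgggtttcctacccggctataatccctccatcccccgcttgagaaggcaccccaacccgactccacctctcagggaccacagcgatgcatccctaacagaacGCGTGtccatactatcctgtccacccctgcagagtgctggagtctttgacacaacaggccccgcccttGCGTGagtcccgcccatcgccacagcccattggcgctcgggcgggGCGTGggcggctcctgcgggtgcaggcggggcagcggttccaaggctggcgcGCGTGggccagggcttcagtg
Hk2 (chr6:82774405-82774704, minus strand): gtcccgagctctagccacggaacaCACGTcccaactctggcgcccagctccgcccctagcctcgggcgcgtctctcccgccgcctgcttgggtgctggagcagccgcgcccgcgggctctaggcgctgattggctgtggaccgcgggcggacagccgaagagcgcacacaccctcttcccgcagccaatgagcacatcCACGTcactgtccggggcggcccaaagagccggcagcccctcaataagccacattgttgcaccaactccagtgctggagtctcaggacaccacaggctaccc
Ldhb (chr6:142507908-142508207, minus strand): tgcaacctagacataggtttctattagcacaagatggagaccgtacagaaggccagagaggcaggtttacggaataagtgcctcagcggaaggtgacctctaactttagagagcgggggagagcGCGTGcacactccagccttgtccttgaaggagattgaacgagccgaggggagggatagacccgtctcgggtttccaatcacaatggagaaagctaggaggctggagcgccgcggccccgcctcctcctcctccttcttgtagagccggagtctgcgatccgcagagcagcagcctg
Bnip3 (chr7:138909457-138909756, minus strand): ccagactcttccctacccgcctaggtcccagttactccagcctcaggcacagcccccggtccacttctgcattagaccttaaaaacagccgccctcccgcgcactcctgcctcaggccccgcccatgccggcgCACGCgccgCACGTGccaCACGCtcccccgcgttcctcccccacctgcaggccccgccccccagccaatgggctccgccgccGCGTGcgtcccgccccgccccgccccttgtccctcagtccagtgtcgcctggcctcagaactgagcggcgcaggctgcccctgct
Ldha (chr7:46845554-46845853, plus strand): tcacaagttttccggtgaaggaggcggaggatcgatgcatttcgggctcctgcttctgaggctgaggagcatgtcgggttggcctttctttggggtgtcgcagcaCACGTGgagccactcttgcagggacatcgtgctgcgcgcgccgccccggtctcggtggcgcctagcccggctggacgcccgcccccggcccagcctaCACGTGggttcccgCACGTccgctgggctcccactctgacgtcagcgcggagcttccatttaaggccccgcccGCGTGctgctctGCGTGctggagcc
Matches in the windows of Pfkp and Hk2, called lower, and Ldhb and Bnip3, called higher, were a condition of showing them. The window of Ldha, called higher, also holds matches, while the promoter of Eno2, called lower, holds neither form. Pfkp has 4 matches to GCGTG and none to ACGTG, Hk2 has 2 to ACGTG, and Ldhb has 1 to GCGTG. Bnip3 has 2 matches to ACGTG and 3 to GCGTG. Ldha has 5 to ACGTG, 4 of them in a pair of CACGTG palindromes, and 2 to GCGTG in the window shown, and its other annotated promoter holds 2 matches to GCGTG and 0 to ACGTG.

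RefSeq promoters were found for 34 of the 36 genes, not for Slc2a3 and Ndrg1. At least 1 promoter held ACGTG in 22 of the 34 genes (64.7%), against 21.8% of 27025 genes with a promoter and 29.6% of the 8428 such genes that were compared in the first table. GCGTG was held by 22 (64.7%), against 35.2% and 56.5%, and either by 30 (88.2%), against 46.7% and 68.0%. Counted over promoters rather than genes, 38 of 49 (77.6%) held either form, against 43.8% of all 32851 promoters. These shares describe letters in a fixed window, and several of the genes belong to the set because they are described targets of hypoxia-inducible factor.

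At the entry of the pathway, both glucose transporter genes were lower in control EBs but within 2-fold, and both were called lower with libraries scaled to the same FPKM sum. Slc2a1, which encodes the widely used transporter GLUT1, was at 307 FPKM in ES cells against 198 in control EBs. Slc2a3, which encodes the high-affinity transporter GLUT3, was at 326 and 201 FPKM. Their sum was 1.59-fold lower in control EBs, and p was 1.70e-06 and 8.26e-08 in the authors' deposited table. Both loci hold other genes, 4 genes in all at Slc2a1 and 2 at Slc2a3, and whether counting used strand is not given in the sources used here.

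Hexokinase, which traps glucose in the cell as glucose 6-phosphate, had the lowest family sum in control EBs relative to ES cells. Hk2 (ENSMUSG00000000628, chr6:82675019-82724448 on mm9) had 118 FPKM in ES cells against 12.1 in control EBs, in a locus of 2 genes, 9.74-fold lower, with p = 4.51e-14 in the authors' deposited table. An interval of 95% from the error that this p implies puts the ratio of control EBs to ES cells between 0.0569 and 0.186, and covers those 2 libraries and not the spread between cultures. Hk1, the form found in most tissues, was at 10.7 and 1.85 FPKM, 5.79-fold lower, with an interval of 0.0378 to 0.790. The sum of the pair was 129 FPKM in ES cells against 14.0 in control EBs. Hk3 was listed at 0 throughout, and Hkdc1 stayed under 2 FPKM in every library.

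Phosphofructokinase, the main control point of glycolysis, differed by isozyme. Pfkp (ENSMUSG00000021196, chr13:6547403-6648023 on mm9), the platelet form in a locus of 2 genes, was at 116 FPKM in ES cells against 7.33 in control EBs, 15.8-fold lower and the lowest of all 35 genes relative to ES cells, with p listed at 0 in the authors' deposited table. Pfkl, the liver form, was at 106 and 69.4 FPKM, and Pfkm, the muscle form, at 16.6 and 13.5 FPKM. Both were within 2-fold, so the family sum, which was 238 and 90.2 FPKM, followed Pfkp. Pfkfb4, a relative of Pfkfb3, was at 1.61 and 1.93 FPKM.

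The other preparatory enzymes did not share one direction. Gpi1, the isomerase between glucose 6-phosphate and fructose 6-phosphate, was at 163 FPKM in ES cells against 106 in control EBs. Aldoa, the most abundant aldolase gene, was at 761 and 817 FPKM, and Aldoc at 4.46 and 8.26. Tpi1, which interconverts the 2 triose phosphates made by aldolase, was at 189 and 341 FPKM, 1.81-fold higher with p = 8.21e-11 in the authors' deposited table. None of these 4 genes passed the size rule.

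In the payoff phase 6 of 7 genes were within 2-fold. Gapdh was at 154 FPKM in ES cells against 224 in control EBs, Pgk1, the kinase that makes the first ATP of this phase, at 74.8 and 100.4, and the mutase gene Pgam1 at 112 and 83.4. Eno1, the general enolase gene, was at 217 and 407 FPKM, and Pkm2 at 1148 and 665. By the values of the genes alone, without near-identical copies, Pkm2 was the most abundant of the 36 genes in ES cells. Ldha was the most abundant in both EB libraries by the same values. The tables give 1 value for the pyruvate kinase gene, so its M1 and M2 splice forms cannot be told apart. Eno2, described in neurons, was called lower at 7.79 and 2.77 FPKM, with an interval of 0.0900 to 1.41 for the ratio that includes 1. Eno3, described in muscle, was at 17.2 and 26.7 FPKM. With libraries scaled to the same FPKM sum, Pgk1 and Aldoa changed sign to −0.03 and −0.35 in log2 difference, as did Pdha1, Pdk3, Egln1 and Pfkfb4. Taken by their own values, without near-identical copies, these genes have no direction here.

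Several of these genes have near-identical copies, mostly processed pseudogenes made by reverse transcription of a mature messenger, and how reads were divided among copies is not given in the sources used here. At least 90% identity across at least 300 bases of coding sequence was found for 92 copies of 10 of the genes, and 30 copies were listed at 1 FPKM or more in some library. Copies took 86.1%, 81.4% and 77.6% of the summed FPKM of Eno1 and its copies in ES cells, control EBs and knockdown EBs. For Pgk1 the shares were 82.9%, 89.4% and 87.0%, for Pgam1 63.2%, 70.6% and 73.6%, and for Gapdh, with 64 copies, 45.6%, 45.9% and 48.6%. The Eno1 case shows how alike such sequences are. Gm13699, a processed pseudogene, was listed at 645 FPKM in ES cells, 867 in control EBs and 586 in knockdown EBs, above Eno1 itself in each library. The 2 sequences differ at 5 of 1302 aligned coding bases (99.6% identity), and a stretch of 90 bases from base 1144 of the coding sequence of Eno1 (GENCODE M21) is shown with its 2 differing bases in capitals.
Eno1: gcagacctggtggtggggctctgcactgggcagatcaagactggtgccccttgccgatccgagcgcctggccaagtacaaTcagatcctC
Gm13699: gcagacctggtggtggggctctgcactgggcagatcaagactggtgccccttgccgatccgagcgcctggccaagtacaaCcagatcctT
A read that covers neither capital matches both loci in this stretch. With copies summed, Pgk1 and its copies were at 2.16-fold in control EBs against ES cells, a log2 difference of 1.11 that passes the size rule, where Pgk1 alone was at 0.42. The summing of copies was not combined with scaling of the libraries. Eno1 with its copies was at 0.49 in place of 0.90, and Aldoa with its copies at −0.02 in place of 0.10. Gapdh, which often serves as a reference gene, was at 0.54 either way and at 0.08 with libraries scaled to the same FPKM sum. Bnip3 with its copies was 3.84-fold higher in control EBs, and Gpi1 with its copy was at −0.58 in place of −0.61.

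**Figure D3:**
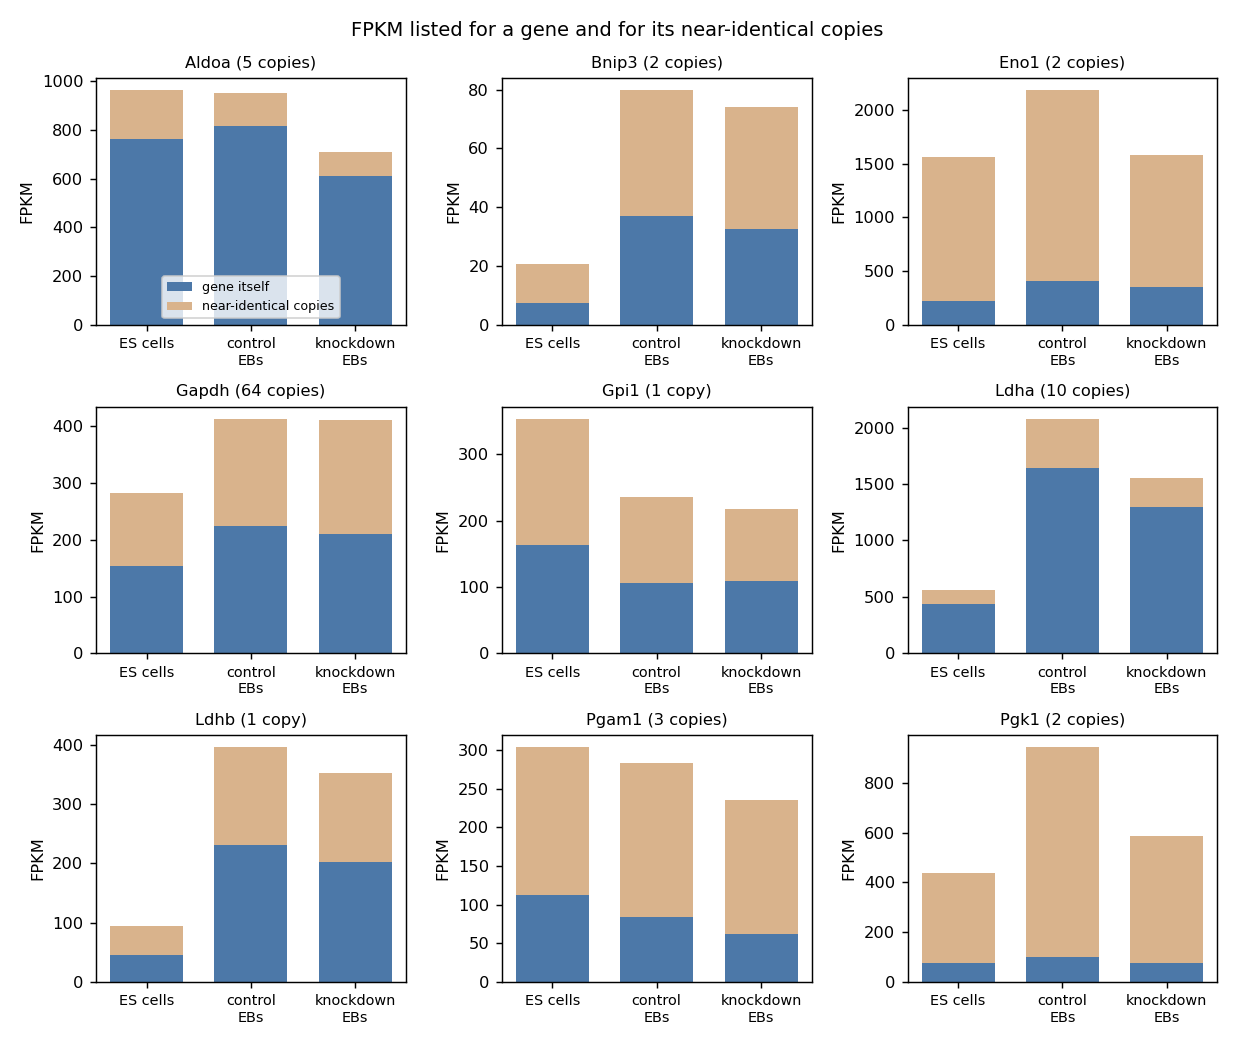
FPKM listed for 9 of the 10 genes with near-identical copies (blue) and summed over their copies (tan) in the 3 libraries, on linear axes from 0 with a scale per panel and no error bars because each group is 1 library. Copies hold more than the gene itself for Eno1, Pgk1, Pgam1 and Bnip3 in every library, and less for Aldoa, Gapdh and Ldha.

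All 4 genes of lactate were higher in control EBs, 3 of them past the size rule. Ldha (ENSMUSG00000063229, chr7:54096845-54110997 on mm9), whose subunit favours the reduction of pyruvate to lactate, was at 433 FPKM in ES cells against 1646 in control EBs, 3.80-fold higher. Ldhb, whose subunit is described as favouring the reverse reaction, was at 44.5 and 232 FPKM, 5.21-fold higher. Both had p listed at 0 in the authors' deposited table. Slc16a1, which encodes the monocarboxylate transporter MCT1, was at 39.6 and 151 FPKM, 3.81-fold higher with an interval of 2.69 to 5.41. Slc16a3, which encodes the lactate exporter MCT4, was at 67.3 FPKM in control EBs against 35.7, 1.88-fold, with an interval of 1.47 to 2.41. The 4 genes stayed above 0 with libraries scaled to the same FPKM sum, where Ldha was at 1.47 and Slc16a3 at 0.45 in log2 difference. Copies changed this little, since Ldha with its 10 copies was 3.69-fold and Ldhb with its copy 4.24-fold higher.

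At the entry to the mitochondrion, Pdk1 was the 1 gene of 5 past the size rule. Pdha1, which encodes the E1 alpha subunit, was at 109 FPKM in ES cells against 116 in control EBs, in a locus of 4 genes, and Dlat, the E2 acetyltransferase, at 41.2 and 27.2. Pdk1, a kinase that switches the complex off by phosphorylating E1 alpha and a described HIF-1 target, was at 164 and 45.4 FPKM. It was 3.60-fold lower in control EBs, with an interval of 0.199 to 0.388 for the ratio and p = 7.02e-14 in the authors' deposited table. Pdk2 (2.79 and 1.91 FPKM) and Pdk3 (14.4 and 17.0 FPKM) were within 2-fold. Of 8 other genes of the complex, its regulators and the pyruvate carriers that were compared, 0 were called higher and 1 (12.5%) lower. Of all genes compared, 15.8% were called higher and 19.5% lower. The 1 called lower was Pdk4, at 1.97 and 0.447 FPKM. The E1 beta gene Pdhb was at 49.4 and 33.5 FPKM.

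The genes of the oxygen sensor itself were within 2-fold. Hif1a, which encodes the alpha subunit that is controlled mainly through its stability as a protein, was at 41.7 FPKM in ES cells against 27.3 in control EBs. The prolyl hydroxylase genes Egln1 and Egln3 were at 7.44 and 8.09 and at 4.92 and 4.79 FPKM. Larger differences were seen in other subunits, from a list that holds no gene described so far. Of its 13 genes 3 (23.1%) were called lower and 2 (15.4%) higher, against 19.5% and 15.8% of all genes compared. The median of the 13 was −0.48, against −0.10 over all genes compared. Epas1, which encodes HIF-2 alpha, was at 37.1 and 1.72 FPKM, and Arnt, the beta subunit that pairs with either alpha subunit, at 40.6 and 12.6 FPKM. Arntl, a circadian relative of Arnt, was at 7.57 and 1.79 FPKM. Hif3a was called higher at 1.11 and 5.36 FPKM, as was Tceb2, which encodes elongin B of the ubiquitin ligase that removes HIF-1 alpha, at 116 and 323 FPKM.

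Genes described as induced by hypoxia were mixed. Bnip3, which encodes a mitochondrial protein of mitophagy, was at 7.53 FPKM in ES cells against 37.0 in control EBs, 4.91-fold higher with an interval of 2.21 to 10.9. Ddit4, which encodes the mTORC1 inhibitor REDD1, was at 16.9 and 64.2 FPKM, 3.80-fold higher with an interval of 2.22 to 6.49. Ndrg1, which encodes a stress-induced protein and lies in a locus of 3 genes, was at 8.0 and 17.2 FPKM. Its log2 difference of 1.02 sits at the size rule, its ratio of 2.15 has an interval of 0.914 to 5.08, and it was at 0.60 with libraries scaled to the same FPKM sum, so this call is weak. Vegfa, the vascular growth factor, was at 33.4 and 23.1 FPKM. Of 22 further described hypoxia genes that were compared 2 (9.09%) were called higher and 5 (22.7%) lower, against 15.8% and 19.5% of all genes compared, with a median of −0.25 against −0.10. Fam162a was at 66.8 and 309 FPKM and Bnip3l, a relative of Bnip3, at 17.7 and 62.6. The collagen-modifying enzyme genes Plod1 (15.4 and 3.38 FPKM) and P4ha2 (25.8 and 8.24 FPKM), Ak4 (21.1 and 6.74 FPKM) and the histone demethylase gene Kdm3a (38.8 and 18.7 FPKM) were lower, as was Zfp36l1 (53.8 and 20.3 FPKM).

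Because FPKM is per length, isozymes can be set side by side as shares of their summed FPKM, and the leading member of 1 family differed between ES cells and control EBs. Pfkp held 48.6% of phosphofructokinase FPKM in ES cells against 8.12% in control EBs, while Pfkl went from 44.5% to 76.9%. Pdk1 held 90.5% of the PDH kinase sum in ES cells against 70.6% in control EBs, and Pdk3 7.94% and 26.4%. Slc16a1 held 52.6% of the monocarboxylate transporter pair in ES cells and 69.2% in control EBs. The shares of Ldha (90.7% and 87.6%), Hk2 (91.7% and 86.8%) and Slc2a3 (51.5% and 50.3%) were close to each other in both libraries, although the sums of the lactate dehydrogenase and hexokinase families differed 3.93-fold and 9.21-fold in opposite directions. Aldoa held at least 98.5% of aldolase and Eno1 at least 89.7% of enolase FPKM in each library.

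**Figure D4:**
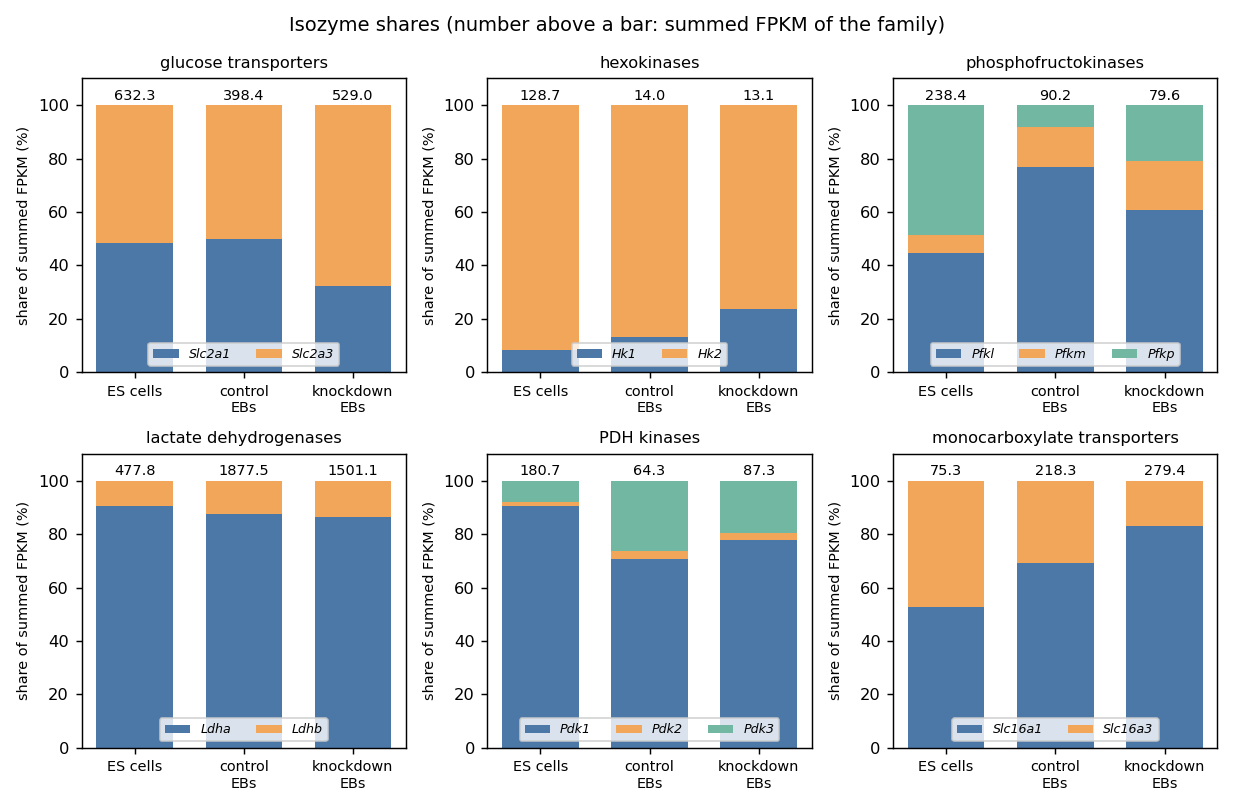
Share of the summed FPKM of 6 enzyme or transporter families held by each member in the 3 libraries, in percent, with the summed FPKM printed above each bar and no error bars because each group is 1 library. The green share of Pfkp is 48.6% in ES cells, 8.12% in control EBs and 20.96% in knockdown EBs, and the blue share of Slc16a1 is 52.6%, 69.2% and 83.1%.

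The second comparison asked how the same genes differed in day 4 EBs with Brachyury knocked down. Most stayed close to control EBs: 32 of 35 genes were within 2-fold. Called higher was 1 gene, Pfkp, which is 2.86% against a background of 5.31% of the 13759 genes compared. Called lower were 2 genes, Ndrg1 and Ddit4, which is 5.71% against 2.53%. The median log2 difference was −0.17, against 0.06 over all genes compared. Below 0 were 21 of the 35 values, against 5839 of the 13759 genes compared. An unadjusted p under 0.05 was given to 11 genes, or 31.4%, in the authors' deposited table, against 10.8% of all genes compared. At least 20 FPKM in either library was reached by 23 of the 35 genes and by 4859 of the 13759. The part of abundance in these shares was not tested. The knockdown comparison shares its control library with the comparison against ES cells, so an error in that library would push the values of both in opposite directions.

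Both called hypoxia response genes were lower in knockdown EBs. Ddit4 (ENSMUSG00000020108, chr10:59412423-59414518 on mm9) was at 64.2 FPKM in control EBs against 23.0 in knockdown EBs, 2.79-fold lower, with p = 2.43e-05 in the authors' deposited table and an interval of 0.223 to 0.577 for the ratio. Ndrg1 (ENSMUSG00000005125, chr15:66760883-66844601 on mm9) was at 17.4 and 5.27 FPKM, 3.30-fold lower, with p = 0.0169 in the authors' deposited table and an interval of 0.114 to 0.807. ES cells were at 16.9 FPKM for Ddit4 and 8.0 for Ndrg1, so the knockdown value of Ddit4 lay between those of ES cells and control EBs and that of Ndrg1 below both. Bnip3 was at 36.9 and 32.7 FPKM and Vegfa at 23.0 and 32.1, both within 2-fold. Of 21 further hypoxia genes compared 0 were called higher and 1 (4.76%) lower, against 5.31% and 2.53% of all genes compared. The 1 called lower was Fam162a, at 309 and 147 FPKM, with p = 1.51e-13 in the authors' deposited table. Plod2, at 16.2 and 8.37 FPKM, stayed within 2-fold on the log2(FPKM + 1) scale.

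In glucose uptake and the preparatory phase, Pfkp and Slc2a3 stood above control EBs. Pfkp was at 7.66 FPKM in control EBs against 16.7 in knockdown EBs, 2.18-fold higher with an interval of 1.58 to 3.0 and p = 2.19e-06 in the authors' deposited table. Its log2 difference of 1.03 is at the size rule, and it was 0.98 with the median of all genes set to 0, which leaves 0 genes called higher. Slc2a3 was at 200.2 and 358 FPKM, 1.79-fold with an interval of 1.5 to 2.13, so it missed the size rule while its p was 5.95e-11 in the authors' deposited table. Slc2a1 was at 198 and 171 FPKM, and the share of Slc2a3 in the pair was 50.3% in control EBs against 67.6% in knockdown EBs. Hk2 was at 12.1 and 9.96 FPKM and Hk1 at 1.80 and 3.11, with an interval of 0.289 to 10.4 for Hk1, so no difference in hexokinase could be detected at this precision. Pfkl was at 69.4 and 48.3 FPKM, Pfkm at 13.4 and 14.6, Gpi1 at 106 and 109, and Tpi1 at 339.9 and 322. Aldoa was at 817 and 612 FPKM, with an interval of 0.674 to 0.832 for the ratio.

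In the payoff phase 6 of 7 genes were lower in knockdown EBs, or 5 with copies summed, all within 2-fold. Of all genes compared, 5839 of 13759 were below 0. Pkm2 was at 665 and 505 FPKM, with an interval of 0.677 to 0.853. Pgk1 was at 100.4 and 76.4 FPKM, Pgam1 at 83.4 and 62.1, and Eno1 at 404 and 354. Eno3 had the greatest distance of the 7, at 26.8 and 15.5 FPKM with an interval of 0.309 to 1.09. Gapdh was at 219.5 and 211 FPKM. Eno2, the exception, was at 3.03 and 3.39 FPKM. With copies summed, Pgk1 was at −0.68 in place of −0.39, Eno1 at −0.47 in place of −0.19, and Gapdh at 0.0026 in place of −0.057.

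The 2 monocarboxylate transporter genes differed in opposite directions, both within 2-fold. Slc16a1 was at 151 FPKM in control EBs against 232 in knockdown EBs, 1.54-fold with an interval of 1.25 to 1.89, whereas Slc16a3 was at 67.1 and 47.1, with an interval of 0.542 to 0.908 for the ratio. The share of Slc16a1 in the pair was therefore 69.2% and 83.1%. Ldha was at 1645 and 1299 FPKM, 1.27-fold lower with an interval of 0.734 to 0.849, and Ldhb at 232 and 202.

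Among the genes of pyruvate dehydrogenase and the oxygen sensor, none passed the size rule in the knockdown. Pdha1 was at 116 and 82.9 FPKM with an interval of 0.544 to 0.939, Dlat at 27.1 and 24.3, and Pdk1 at 45.6 and 68.0 with an interval of 1.02 to 2.18. Pdk2 was at 1.91 and 2.25 FPKM and Pdk3 at 17.0 in both libraries. Hif1a was at 27.3 and 29.8 FPKM. Egln1, at 8.09 and 5.48 FPKM, and Egln3, at 4.79 and 3.21, have intervals of 0.229 to 2.0 and 0.163 to 2.76, too wide to show a difference of 2-fold. None of the 13 other HIF subunit and regulator genes passed the size rule, against 5.31% higher and 2.53% lower of all genes compared. Epas1 was at 1.72 and 2.57 FPKM and Arnt at 12.6 and 11.8.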

How the data were processed

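The 3 libraries, 1 per group, were grouped by their titles into ES cells, control EBs and Brachyury knockdown EBs. The submitters' processing notes name Bowtie, Cuffdiff and build mm9 but no versions, and no source used here gives the gene annotation. The authors deposited 2 tables of FPKM, which are fragment counts per length of transcript and per library total, with an unadjusted p-value per gene. The day 4 EB column beside ES cells, with no treatment in its name, was read as the control library.

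Short RNAs (4459 rows) were left out and rows of a symbol were summed, which left 32204 symbols. Differences of log2(FPKM + 1) were computed with Python 3.11.15 and pandas 2.3.3 for genes at 1 FPKM or more in either library of a table. Intervals come from the error that the authors' deposited p implies on the natural log of the ratio, and have no value where p is listed at 0. Near-identical copies were found with BLAST+ 2.17.0 in GENCODE M21 transcripts, with genes longer than 10 times the aligned length left out. Coordinates of deposited loci have 1 added to the start, and 13 of the genes share such a locus. Promoters and copies are on GRCm38 and were matched by symbol or gene ID.

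The named genes were all 36, T, and up to 4 genes of each further list with at least 5 FPKM and the greatest difference. Pdk4, Hk3, Hkdc1, Kdm3a, Ak4, Zfp36l1, Tceb2, Fh1, Sdhc, the marker genes other than T and the copies were named after their values were seen. The genes and lists were chosen with earlier results of these data known.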

Additional observations from a re-analysis of the deposited data

How the results depend on the processing

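Pseudocounts of 0.1 and 0.5, no floor, a floor of 5 FPKM and the highest row of a symbol kept the counts of called genes in both comparisons. The shares of all genes moved. With a pseudocount of 0.1 they were 19.1% higher and 23.2% lower in control EBs against ES cells. In knockdown against control EBs they were 8.46% and 3.92%. No called gene changed direction under any setting. In control EBs against ES cells, libraries scaled to the same FPKM sum gave 12 lower genes in place of 5. Those added were Slc2a1, Slc2a3, Gpi1, Pfkl, Pkm2, Dlat and Hif1a, and the median was −0.36. The other scaling moved calls upward. With the median ratio set to 0, 7 genes were higher in place of 6, adding Eno1, and 5 were lower. The median was then 0.20, and the shares of all genes were 17.8% higher and 17.7% lower. Copies summed also gave 7 higher, adding Pgk1, and 5 lower. A 1.5-fold rule gave 11 higher and 11 lower of 35, against 25.8% and 31.6% of all genes. The authors' p gave 9 higher and 10 lower, against 17.6% and 19.6%. A floor of 20 FPKM gave 5 higher and 3 lower, against 17.4% and 21.4%. That floor was chosen after seeing the data, like the summing of copies. In knockdown against control EBs, 0 genes were higher with the median ratio set to 0 (all genes 4.99%). A 1.5-fold rule gave 3 higher and 3 lower (all genes 11.48% and 5.96%). The authors' p gave 4 higher and 7 lower (all genes 6.11% and 4.65%). A 3-fold rule gave 0 and 0, against 2.14% higher and 0.894% lower of all genes. A floor of 20 FPKM gave 0 higher and 1 lower, against 3.05% and 1.73%. The fewer genes at a higher floor follow from its construction, and the cause of the other changes was not tested. No paired analysis was possible because each group is 1 library, and no library could be left out for the same reason. Unknown depth limits genes near 1 FPKM most, and the error of the ratio on the natural log scale ran from 0.0504 to 1.08 in the first comparison.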

Other observations

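Beyond glycolysis, genes of the tricarboxylic acid cycle, which burns pyruvate carbon in mitochondria, were split between ES cells and control EBs. Of 16 genes 3 (18.75%) were called higher and 2 (12.5%) lower in control EBs, against 15.8% and 19.5% of all genes compared. Their median log2 difference was 0.05, against −0.10 over all genes compared. The 4 subunits of succinate dehydrogenase, which form 1 complex of the respiratory chain, did not share a direction. Sdhb was at 87.8 FPKM in ES cells against 203 in control EBs and Sdhd at 86.8 and 207, whereas Sdha was at 150.1 and 64.0 and Sdhc at 82.8 and 66.1. Fh1, the fumarase gene of the next step, was at 37.2 and 77.6 FPKM, and Ogdh, of the 2-oxoglutarate dehydrogenase complex, at 40.1 and 15.3. In knockdown against control EBs none of the 16 passed the size rule, against 5.31% higher and 2.53% lower of all genes compared. The named members of these lists lie under the same size rule and have no replicate check.

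In the pentose phosphate pathway, which makes NADPH and ribose from glucose 6-phosphate, 1 of 8 genes was called higher and 1 lower in control EBs. Each is 12.5%, against 15.8% called higher and 19.5% called lower of all genes compared. Pgls, the lactonase gene, was at 38.3 FPKM in ES cells against 141 in control EBs, and H6pd at 5.55 and 2.15. Of 13 genes of gluconeogenesis and glycogen compared 0 were called higher and 3 (23.1%) lower, against the same shares of all genes. Fbp2, a fructose bisphosphatase gene, was at 20.2 FPKM in ES cells and listed at 0 in the EB libraries of both tables. Gys1, the glycogen synthase gene of most tissues, was at 42.3 and 8.25 FPKM, and Pck2 at 31.0 and 14.4. Of 10 other isozyme and transporter genes of glycolysis and lactate, 0 were called higher and 2 (20%) lower, again against 15.8% and 19.5%. Among the 2 was Tigar, listed as 9630033F20Rik, at 22.6 and 6.76 FPKM. In knockdown against control EBs none of the genes of these 3 lists passed the size rule, against 5.31% higher and 2.53% lower of all genes. Gpd2, of the glycerol phosphate shuttle, had a 0 for ES cells and for control EBs in the first table, whereas the second listed the same control library at 13.6 FPKM.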
